A study of Rattus norvegicus with 12 samples.

Results

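The transcripts described here encode the subunits of mitochondrial oxidative phosphorylation, measured in the basolateral amygdala (BLA) of rats that drank sucrose or water. Members were all probe sets whose platform annotation gave exactly 1 gene symbol, where that symbol began with Nduf, Uqcr or Atp5, was Sdha, Sdhb, Sdhc, Sdhd, Cyc1 or Cycs, or was Cox followed by a digit from 4 to 8 and a letter. This gave 97 probe sets of 87 genes among the 31042 probe sets tested. Complex I had 39 probe sets of 36 genes, complex II 5 of 4, complex III 9 of 8, complex IV 17 of 17 and complex V 20 of 16. A further 7 probe sets of 6 genes belonged to Ndufaf assembly factors of complex I, which the symbol rule also takes in. Among the subunit genes looked for by name, Cycs, Cox7a2, Cox8c, Atp5mc1 and Atp5mc2 were not analysed here. Another 9 probe sets, annotated to several genes of which at least 1 fits these symbols, were left out.

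All animals were male Long-Evans rats of 2 to 3 months, housed singly with free chow and water. The sucrose group was offered up to 4 mL of 30% sucrose 2 times a day for 14 days, and the control group was offered a water bottle on the same schedule. The BLA, a part of the forebrain that ties sensory cues to their value, was dissected on the morning of day 15. Left and right BLA of 2 rats of one group were pooled for each array, so 24 rats gave 6 sucrose and 6 control arrays, and the pool is the replicate. The deposited value is the signal on an array divided by the average of the 6 controls for that probe set. Such a ratio keeps no signal level, so levels cannot be ranked between genes, dim probe sets cannot be recognised, and the dissected region could not be checked by the level of its markers.

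Oxidative phosphorylation supplies most of the ATP of neurons. Complexes I and II pass electrons from NADH and succinate to ubiquinone, complex III passes them on to cytochrome c, and complex IV passes them to oxygen. Complexes I, III and IV pump protons across the inner membrane, and complex V, the ATP synthase, uses the returning protons to make ATP. Most subunits are encoded in the nucleus and assembled with a few made from mitochondrial DNA. Their nuclear genes are known to share regulators, among them NRF1, the ETS factor GABP (also called NRF2), YY1 and the PGC-1 coactivators.

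No member passed the test between sucrose and control arrays, and the differences were small. Each difference is given as log2 of sucrose over control with the SE of the limma fit, and each ratio is to the control average. The 97 differences lay between -0.14 for Cox6b2 and 0.12 for Cox5a, with a median of -0.0020, against -0.0054 over all probe sets. Of the members 43 were higher and 54 lower after sucrose, and 45.7% of all probe sets were higher. The limma fit called 0 members at an adjusted p under 0.05, where it called 0% of all probe sets. At an unadjusted p under 0.05 there were 0 members, against 7.57% of all probe sets. The limma fit draws each SD toward a common value of 0.077, and the members' SD within groups had a median of 0.039. It thus widens the errors and intervals of the steadier members. A Welch test, which uses each probe set's own SD, gave 1 member at that p, Ndufs6. The lowest unadjusted p in limma was 0.0944 and the lowest adjusted p 0.734, both for a probe set of Ndufv3. For 0 of the 97 did the sucrose and control arrays not overlap, a separation seen in 0.425% of all probe sets. Fewer cells of a type and less RNA per cell cannot be told apart in such pooled tissue.

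The 95% intervals, which are not adjusted for the number of probe sets, limit how large each difference may be. For 71 of the 97 probe sets, 73.2%, the whole 95% interval of the difference lay within 0.1 log2 units of 0. This held for 18.1% of all probe sets. Over the related mitochondrial lists described below the share ran from 22.2% for biogenesis regulators to 66.7% for antioxidant enzymes. It was 55.7% for the mitochondrial ribosome. The interval stayed within a 1.2-fold change either way for 95 members, against 89.7% of all probe sets. Both exceptions were complex IV subunits, Cox5a with an interval up to 25.3% higher and Cox6b2 with an interval down to -19.9%. None of the 97 estimates passed 1.2-fold, and 0.802% of all probe sets did.

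**Figure D1:**
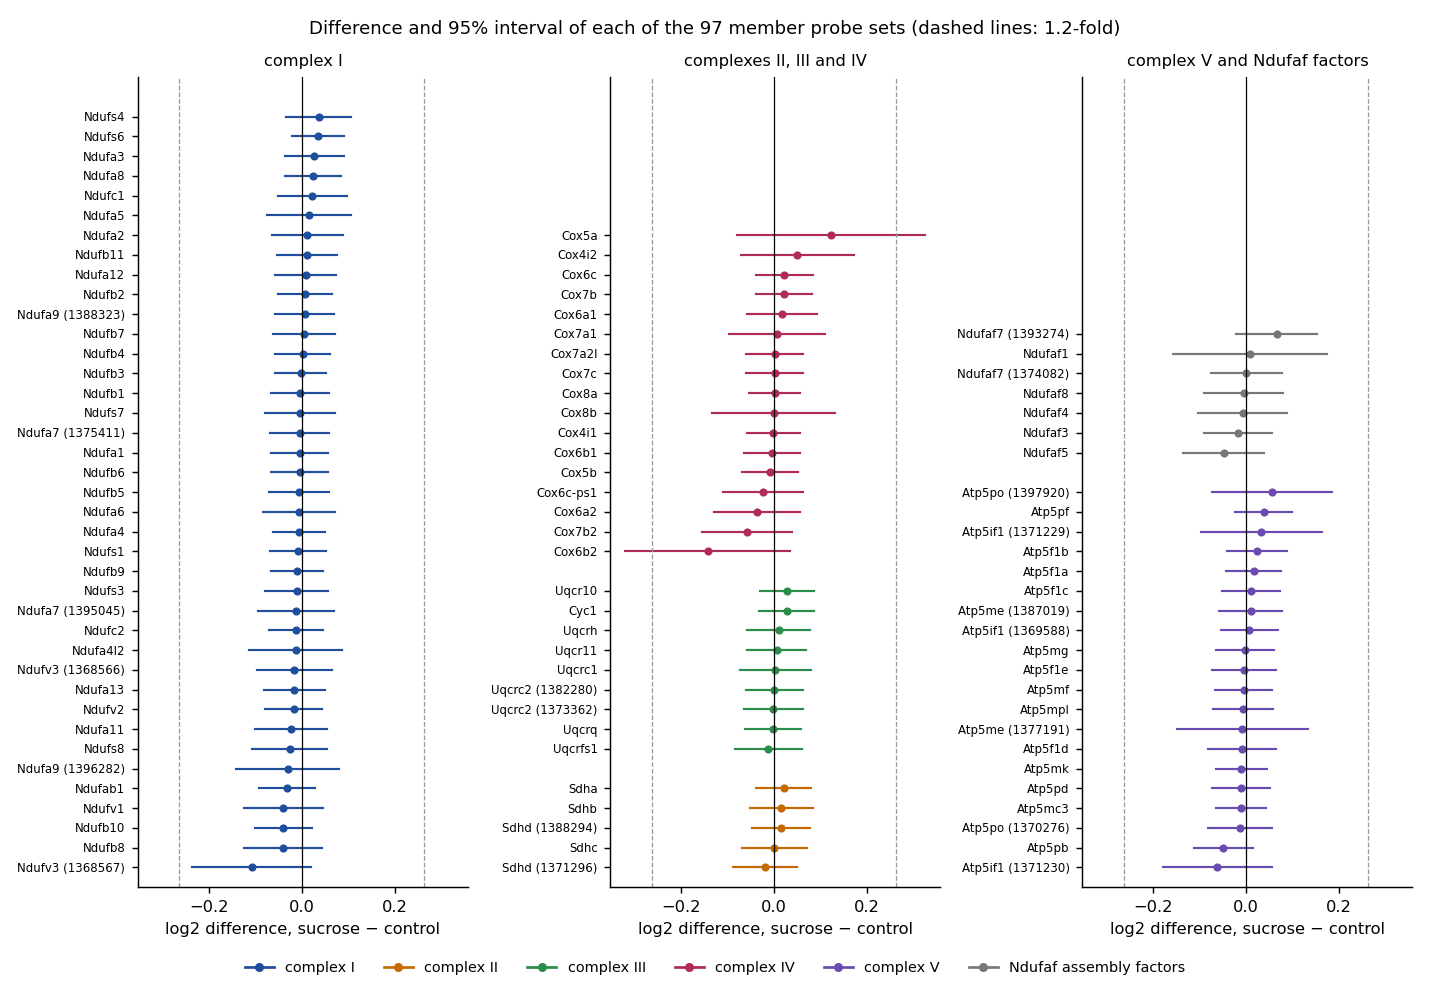
Log2 difference, sucrose minus control, of each of the 97 member probe sets (points) with its 95% interval from limma (lines), in 3 panels by complex, ordered by size within each complex. All intervals cross 0, and the intervals of Cox5a and Cox6b2 reach past the dashed lines at 1.2-fold.

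Taken by complex, the median differences were -0.0055 for complex I, 0.015 for complex II, 0.0036 for complex III, 0.0014 for complex IV and -0.0048 for complex V. The median ratio per array of complex I, which had the most members, ran from 0.966 to 1.014 in the sucrose arrays and from 0.981 to 1.015 in the controls. Those of complex II ran from 0.986 to 1.026 and from 0.982 to 1.032. Complex III ran from 0.981 to 1.018 and from 0.990 to 1.023, complex IV from 0.972 to 1.013 and from 0.992 to 1.005, and complex V from 0.979 to 1.017 and from 0.981 to 1.012. For all 5 complexes the groups overlapped, and each median difference was smaller than the pooled SD between arrays of that complex's median. The signs were not stable when single arrays were left out, except for complex II, which stayed between 0.0032 and 0.021. Complex III reached -0.0026 without control array 2, and complex IV -0.0049 without sucrose array 5. The medians of complexes I and V, and that of all members, changed sign when sucrose array 6 was left out, to 0.0057, 0.010 and 0.0070. Complex V and all members also changed sign without control array 1 (0.0049 and 0.0048), and all members did so when arrays were centred on their medians (0.0013) or quantile normalized again (0.00082).

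**Figure D2:**
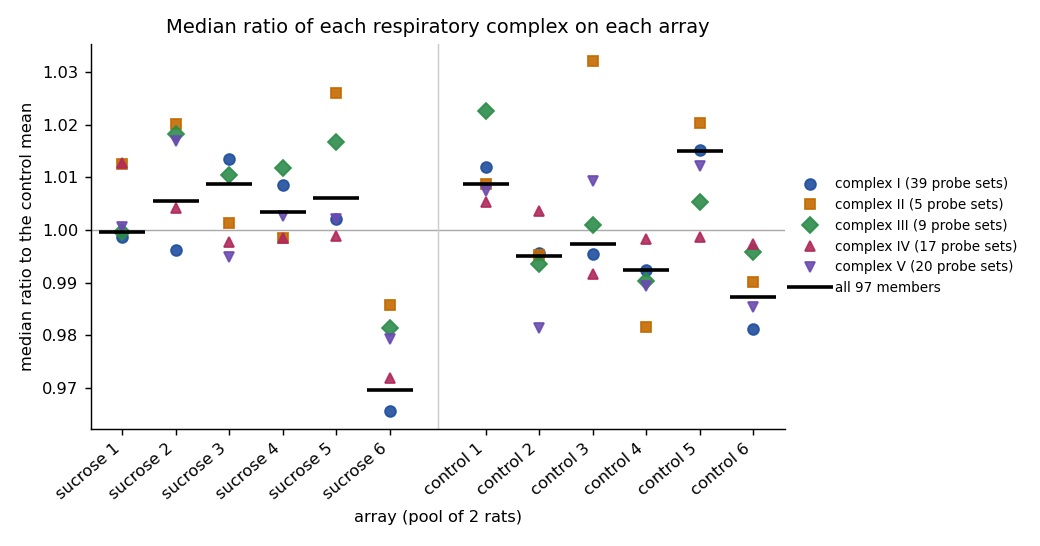
Median ratio to the control mean of the probe sets of complexes I to V (coloured symbols) and of all 97 members (black lines) on each of the 6 sucrose and 6 control arrays. The black line lies between 0.987 and 1.015 on 11 arrays and at 0.970 on sucrose array 6, where all 5 complexes are below 1.

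Complex I, NADH:ubiquinone oxidoreductase, had 13 probe sets higher and 26 lower after sucrose. Its 6 measured nuclear-encoded core subunits, which hold the flavin and most of the iron-sulphur clusters or the ubiquinone site, were all lower, by a median of -0.014. Among them Ndufv1, the subunit that binds NADH and the flavin, had ratios from 0.925 to 1.011 in the sucrose arrays with a median of 0.987, and from 0.946 to 1.091 in the controls with a median of 0.990. Of the sucrose arrays 2 lay below every control and the others among them, and the difference was -0.039 ± 0.039 (SE), with an adjusted p of 0.868 in limma. Ndufs3, Ndufs7 and Ndufs8 of the ubiquinone-reducing part differed by -0.011, -0.0036 and -0.025, and Ndufs1 and Ndufv2 of the NADH-oxidising part by -0.0082 and -0.017. None of these 6 had an unadjusted p below 0.336 in limma, and 5 of the 6 had their lowest value of all 12 arrays on sucrose array 6. The sucrose median was above the control median for Ndufs7 (1.009 and 0.994) and Ndufs8 (0.992 and 0.988), and below it for the others. Deviations of these 6 from the group means correlated at 0.564 on average, so their signs are not separate observations. Over all probe sets 45.7% were higher after sucrose.

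The complex I probe set of lowest p measured Ndufv3, a small accessory subunit of the NADH-oxidising part with alternatively spliced forms. Its probe set 1368567_at had ratios from 0.830 to 1.081 in the sucrose arrays with a median of 0.930, and from 0.929 to 1.104 in the controls with a median of 0.993. Of the sucrose arrays 3 lay below every control and 1 was above all but 1 of them, so the groups overlapped. The difference was -0.11 ± 0.060 (SE), unadjusted p = 0.0944 and adjusted p = 0.734 in limma. The other Ndufv3 probe set, 1368566_a_at, whose suffix marks a design shared by several transcripts of the gene, had ratios from 0.917 to 1.061 in the sucrose arrays with a median of 1.001, and from 0.956 to 1.041 in the controls with a median of 0.995. It differed by -0.016 ± 0.038 (SE), and both probe sets thus had the same sign with unequal sizes, while their deviations from the group means correlated at -0.20 over the 12 arrays.

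On the higher side of complex I stood 2 further accessory subunits. Ndufs6, a zinc-binding subunit of the NADH-oxidising part, had ratios from 0.999 to 1.049 in the sucrose arrays with a median of 1.027, and from 0.979 to 1.017 in the controls with a median of 1.003. Of its sucrose arrays 3 were above every control and 3 among them, and the difference was 0.035 ± 0.026 (SE) with an adjusted p of 0.813 in limma. Ndufs4, a subunit of the NADH-oxidising part whose loss in mice gives a Leigh-like disease, had ratios from 1.008 to 1.047 in the sucrose arrays with a median of 1.022, and from 0.943 to 1.050 in the controls with a median of 0.993. All 6 of its sucrose arrays were above 1, within the range of the controls, and it differed by 0.036 ± 0.032 (SE) with an adjusted p of 0.845.

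Among accessory subunits of the membrane arm, Ndufb10 had ratios from 0.943 to 0.997 in the sucrose arrays with a median of 0.976, and from 0.967 to 1.030 in the controls with a median of 1.001. All 6 sucrose arrays were below 1, 2 of them below every control, and the difference was -0.039 ± 0.029 (SE) with an adjusted p of 0.811 in limma. Over the 13 Ndufb and Ndufc probe sets 5 were higher and 8 lower, between -0.040 for Ndufb8 and 0.023 for Ndufc1. Over the 16 Ndufa probe sets, Ndufab1 (the mitochondrial acyl carrier protein) included, 6 were higher and 10 lower, between -0.032 for Ndufab1 and 0.027 for Ndufa3. Ndufa4, now known as a subunit of complex IV in spite of its name, differed by -0.0063 ± 0.026 (SE), and its hypoxia-inducible relative Ndufa4l2 by -0.012 ± 0.046 (SE). Counting Ndufa4 in complex IV changed the median of complex I to -0.0049 and that of complex IV to 0.00052.

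The Ndufaf assembly factors, which help to build complex I and are not part of it, had 3 probe sets higher and 4 lower. Ndufaf7, a methyltransferase that modifies a core subunit, had ratios from 1.003 to 1.102 in the sucrose arrays with a median of 1.039, and from 0.897 to 1.054 in the controls with a median of 1.012 on probe set 1393274_at. All 6 sucrose arrays were above 1, 2 of them above every control, and the difference was 0.066 ± 0.041 (SE) with an adjusted p of 0.771. Its other probe set, 1374082_at, had ratios from 0.960 to 1.056 in the sucrose arrays with a median of 0.994, and from 0.956 to 1.066 in the controls with a median of 0.988, a difference of 0.00048 ± 0.035 (SE). Ndufaf5, which hydroxylates Ndufs7, had the most negative difference of the factors, -0.048 ± 0.040 (SE), with an adjusted p of 0.837.

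Complex II, succinate dehydrogenase, is the one complex made of nuclear-encoded subunits alone, and it also works in the citric acid cycle. Sdha, the flavoprotein that oxidises succinate, had ratios from 0.993 to 1.046 in the sucrose arrays with a median of 1.015, and from 0.978 to 1.048 in the controls with a median of 0.989. Of its sucrose arrays 2 lay below 1, as did 4 controls, and the difference was 0.021 ± 0.028 (SE) with an adjusted p of 0.908. The iron-sulphur subunit Sdhb had ratios from 0.959 to 1.041 in the sucrose arrays with a median of 1.012, and from 0.958 to 1.051 in the controls with a median of 1.000, and it differed by 0.016 ± 0.032 (SE). Of the membrane anchors, Sdhc differed by 0.0014 ± 0.033 (SE). The 2 probe sets of Sdhd went opposite ways, by 0.015 ± 0.029 (SE) on 1388294_at and by -0.019 ± 0.032 (SE) on 1371296_at, and neither difference exceeded its error.

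Complex III had 6 probe sets higher and 3 lower. Cyc1, cytochrome c1, which hands electrons to cytochrome c, had ratios from 0.986 to 1.036 in the sucrose arrays with a median of 1.022, and from 0.966 to 1.039 in the controls with a median of 1.000. The groups overlapped, and the difference was 0.028 ± 0.028 (SE) with an adjusted p of 0.868. The Rieske iron-sulphur protein Uqcrfs1 had ratios from 0.920 to 1.040 in the sucrose arrays with a median of 0.992, and from 0.964 to 1.023 in the controls with a median of 1.008, a difference of -0.012 ± 0.034 (SE), whose sign turned when sucrose array 4 was left out (0.0098). Uqcr10, a small subunit beside cytochrome c1, had the lowest p of the complex. It had ratios from 0.981 to 1.042 in the sucrose arrays with a median of 1.026, and from 0.969 to 1.020 in the controls with a median of 1.001. Of the sucrose arrays 3 were above every control, and the difference was 0.029 ± 0.027 (SE) with an adjusted p of 0.859. Uqcrc1 and the 2 probe sets of Uqcrc2, the core proteins, differed by at most 0.0036 in size.

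Complex IV, cytochrome c oxidase, had 9 probe sets higher and 8 lower, and it held both extremes of all members. Cox5a, a nuclear-encoded subunit on the matrix side, had ratios from 0.959 to 1.402 in the sucrose arrays with a median of 1.000, and from 0.901 to 1.172 in the controls with a median of 1.001. Sucrose arrays 1 and 3, at 1.402 and 1.228, lay above every control array, whose highest value was 1.172, and the other 4 sucrose arrays were between 0.959 and 1.002. The difference was 0.12 ± 0.094 (SE) with an adjusted p of 0.817 in limma. It was 0.049 without sucrose array 1, the lowest value with any array left out, and 0.17 at most, without control array 3. Sucrose array 1 had a 3-prime minus 5-prime log2 difference of Gapdh and beta-actin controls of -0.137, against -0.038 to 0.084 on the others. It also had the highest hybridisation spike-ins, at 0.183 on the log2 scale, and the lowest median over all probe sets, 0.989. The part of these in its Cox5a value was not tested. Of the other nuclear-encoded subunits, Cox5b differed by -0.0081 ± 0.028 (SE), and Cox4i1 by -0.0012 ± 0.027 (SE).

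The 10 widely expressed subunits of complex IV were compared with 6 isoforms known mainly from other tissues (Cox6a2, Cox7a1 and Cox8b from heart and skeletal muscle, Cox6b2 and Cox7b2 from testis, Cox4i2 from lung and hypoxic tissue). Of the widely expressed subunits 7 were higher and 3 lower with a median of 0.0017, and of the restricted isoforms 2 were higher and 4 lower with a median of -0.018. Cox6b2 had ratios from 0.828 to 0.972 in the sucrose arrays with a median of 0.890, and from 0.787 to 1.188 in the controls with a median of 0.983. All 6 sucrose arrays were below 1, as were 4 of the 6 controls, and control array 2 was the lowest of all. The difference was -0.14 ± 0.083 (SE) with an adjusted p of 0.747, and it was -0.21, with an adjusted p of 0.376, when control array 2 was left out. Its counterpart Cox6b1 differed by -0.0037 ± 0.028 (SE).

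Cox7b2 had ratios from 0.854 to 1.022 in the sucrose arrays with a median of 0.975, and from 0.960 to 1.047 in the controls with a median of 0.998, and Cox7b had ratios from 0.979 to 1.036 in the sucrose arrays with a median of 1.024, and from 0.982 to 1.038 in the controls with a median of 0.995. The groups overlapped for both, with differences of -0.058 ± 0.045 (SE) and 0.021 ± 0.028 (SE). Cox4i2 differed by 0.051 ± 0.057 (SE), Cox6a2 by -0.036 ± 0.043 (SE), Cox7a1 by 0.0071 ± 0.048 (SE) and Cox8b by -0.00038 ± 0.062 (SE). Cox6a1, Cox7a2l (a factor that joins complexes III and IV into supercomplexes) and Cox8a differed by 0.017, 0.0018 and 0.0014. The restricted isoforms thus had wider errors, and their SD over the 12 arrays had a median of 0.093, against 0.031 for the widely expressed subunits. Whether these isoforms were detected above background in the BLA could not be checked from ratios. The pseudogene Cox6c-ps1 differed by -0.024 and Cox6c itself by 0.023. Probe sets for such near-identical sequences may share signal.

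**Figure D3:**
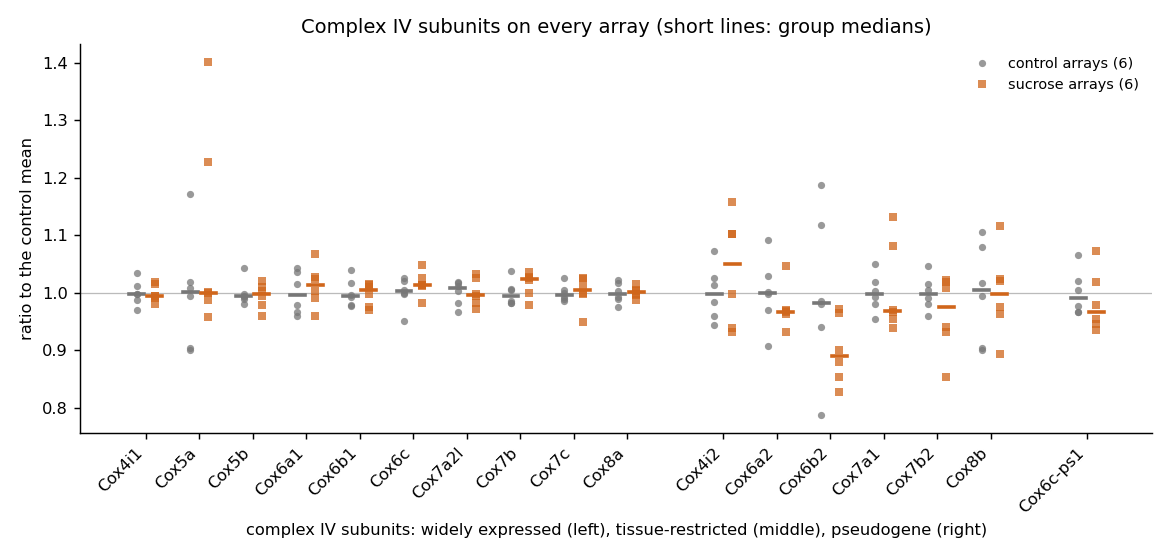
Ratio to the control mean of the 17 complex IV probe sets on each of the 6 control arrays (grey circles) and 6 sucrose arrays (orange squares), with a short line at each group's median. Widely expressed subunits other than Cox5a stay between 0.949 and 1.067, while Cox6b2 spreads from 0.787 to 1.188 and 2 sucrose arrays of Cox5a stand at 1.228 and 1.402.

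Complex V had 8 probe sets higher and 12 lower. In the catalytic head and central stalk, Atp5f1a, Atp5f1b and Atp5f1c (the alpha, beta and gamma subunits) differed by 0.016, 0.024 and 0.011, and Atp5f1d and Atp5f1e (delta and epsilon) by -0.0084 and -0.0043. Atp5f1b, which carries the catalytic sites, had ratios from 0.979 to 1.046 in the sucrose arrays with a median of 1.018, and from 0.975 to 1.060 in the controls with a median of 0.990, and the groups overlapped. In the peripheral stalk, Atp5pf, coupling factor 6, had ratios from 0.994 to 1.047 in the sucrose arrays with a median of 1.037, and from 0.960 to 1.028 in the controls with a median of 1.004. Of the sucrose arrays 4 were above every control and 2 among them, and the difference was 0.038 ± 0.028 (SE) with an adjusted p of 0.812. Atp5pb, subunit b of the same stalk, had ratios from 0.936 to 0.989 in the sucrose arrays with a median of 0.971, and from 0.973 to 1.038 in the controls with a median of 0.986. All 6 sucrose arrays were below 1, 3 of them below every control, and the difference was -0.049 ± 0.030 (SE) with an adjusted p of 0.771 in limma.

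In the membrane sector 1 of 7 probe sets was higher and 6 were lower, between -0.011 for Atp5mc3, the ring subunit that carries protons, and 0.0096 for 1 of the 2 probe sets of Atp5me. Atp5if1, the inhibitor that stops the enzyme from running backwards when the proton gradient fails, had 3 probe sets. They differed by 0.0070 ± 0.029, 0.033 ± 0.061 (SE) and -0.062 ± 0.055 (SE), so that 2 were higher and 1 was lower, none with an adjusted p below 0.845. The last of these carries a suffix that marks probes able to bind other transcripts.

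Repeat probe sets give a check of such small differences. Of the 9 genes with 2 or 3 probe sets, Ndufa7, Ndufaf7 and Ndufv3 had the same sign on all of theirs, and the other 6 genes (Atp5if1, Atp5me, Atp5po, Ndufa9, Sdhd and Uqcrc2) did not. The 9 left-out probe sets with several symbols differed by -0.057 to 0.056, with 3 higher and a lowest adjusted p of 0.749.

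The members varied little from array to array. The SD of the log2 ratio over the 12 arrays had a median of 0.039 for the members and 0.086 for all probe sets, and 75 of the 97 members, 77.3%, were in the lowest quartile of all probe sets. The steadiest were Cox8a, Atp5mk, Atp5mc3, Ndufb3 and Ndufa4, with SDs of 0.020, 0.020, 0.021, 0.021 and 0.023. Cox8a had ratios from 0.987 to 1.016 in the sucrose arrays with a median of 1.001, and from 0.975 to 1.022 in the controls with a median of 0.998. At the other end were Cox5a, Cox6b2, Ndufaf1, Ndufv3 (1368567_at) and Atp5me (1377191_at), with SDs of 0.19, 0.17, 0.14, 0.12 and 0.12. The mitochondrial ribosomal proteins, also encoded in the nucleus, had a median of 0.053. Over the related mitochondrial lists described below it ran from 0.043 for carriers, near that of the members, to 0.071 for other assembly factors. Whether the small spread goes with a high signal could not be tested, since the ratios keep no level.

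**Figure D4:**
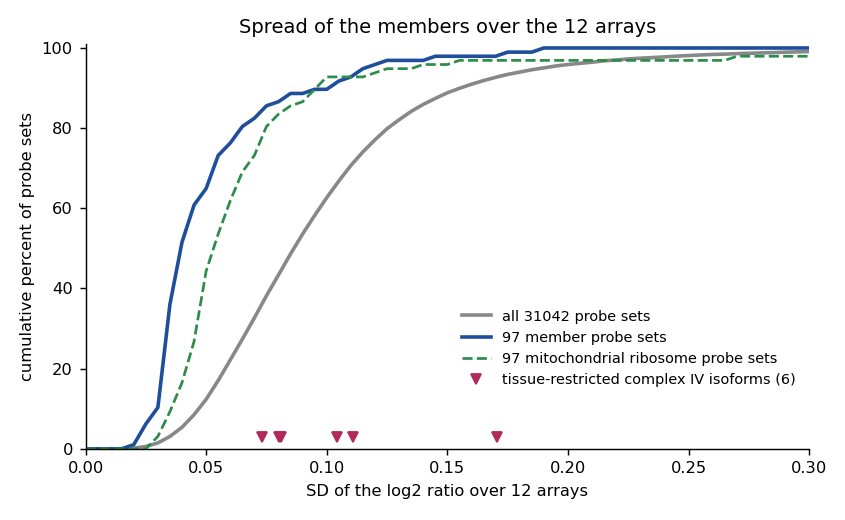
Cumulative percent of probe sets (vertical axis) whose SD of the log2 ratio over 12 arrays is at or below the value on the horizontal axis, for the 97 members, the 97 mitochondrial ribosome probe sets and all 31042 probe sets. The member curve rises first, with a median of 0.039 against 0.086 for all, and the 6 tissue-restricted complex IV isoforms (triangles) lie from 0.073 to 0.17.

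Sucrose array 6 stood apart from the other arrays for the members as a whole. On it 80 of the 97 members were below 1, which is 82.5% against 53.7% of all probe sets, and their median ratio was 0.970, against 0.9996 to 1.009 on the other 5 sucrose arrays. It was the lowest of the 12 arrays for 35 members, 36.1% against 8.42% of all probe sets. By complex this held for 20 of 39 probe sets of complex I, 1 of 5 of complex II, 2 of 9 of complex III, 4 of 17 of complex IV and 7 of 20 of complex V. The 97 mitochondrial ribosome probe sets showed it too, with 34 lowest on this array and a median of 0.957. The array's median over all probe sets was 0.995 and its 3-prime minus 5-prime difference of Gapdh and beta-actin controls was 0.0034. Its hybridisation spike-ins were at -0.082 on the log2 scale, and all 3 values were inside the range of the other arrays. Spike-ins were lower on control arrays 3 and 5, at -0.083 and -0.116. Among the sucrose arrays this array had the lowest, with the others from 0.013 to 0.183. Its oligodendrocyte markers had a median ratio of 1.099 and its pan-neuronal markers one of 0.9997, and the part of either in the low member values was not tested. Leaving this array out gave 0 members called, as with all arrays.

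Among the controls, array 1 had the highest of all 12 values for 21 members and array 5 for 17. Control array 6 had 72 of 97 members below 1, against 49.7% of all probe sets. Member medians were thus spread between arrays within both groups, from 0.987 to 1.015 among the controls alone.

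The members moved together across arrays to a modest degree. After group means were removed, the mean pairwise Pearson correlation over the 12 arrays was 0.160 among the members and 0.0033 among all probe sets. Within the related mitochondrial lists described below it ran from 0.020 for biogenesis regulators to 0.191 for the mitochondrial ribosome, a range that holds the members' value. With sucrose array 6 left out, these lists ran from 0.021 for biogenesis regulators to 0.149 for citric acid cycle enzymes. Without sucrose array 6 the members' value fell to 0.0717, so more than 1.5 times lower, and leaving out any other array gave at most 0.190. Within complexes it was 0.253 for complex I, 0.215 for complex II, 0.202 for complex III, 0.0016 for complex IV and 0.225 for complex V. Inside complex IV the widely expressed subunits were at 0.184 and the restricted isoforms at -0.035, and without sucrose array 6 at 0.036 and -0.020. Tighter groups were the 5 subunits of the catalytic head and central stalk of complex V at 0.620, the 6 core subunits of complex I at 0.564 and the 4 small subunits of complex III at 0.532. Without sucrose array 6 these were 0.523, 0.390 and 0.376. They were the highest of the subgroups. The others ran from -0.185 for the 4 accessory Ndufs and Ndufv probe sets of complex I to 0.367 for its Ndufb and Ndufc subunits. Between these lay the complex III core proteins at -0.030 and the peripheral stalk of complex V at 0.143. Without sucrose array 6 the other subgroups ran from -0.240, again for accessory Ndufs and Ndufv, to 0.341 for the catalytic subunits of complex III. All pairs share the same 12 hybridisations, so these values are descriptions.

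Between complexes I, II, III and V the correlations ran from 0.184, for I against II, to 0.247, for II against V, and complex IV against each of the others gave 0.090 to 0.112. Without sucrose array 6 these were lower, at 0.039 for I against II and 0.140 for II against V. Of the lists outside the respiratory chain, that of the mitochondrial ribosomal proteins had the highest mean correlation with the members, at 0.158, followed by antioxidant enzymes at 0.117. Without sucrose array 6 these fell to 0.064 and 0.057. The lowest was that of striatal and central amygdala markers at -0.090, which became 0.015 without that array. Citric acid cycle enzymes went from 0.036 to -0.0090, oligodendrocyte markers from -0.055 to 0.0037 and pan-neuronal markers from -0.035 to -0.031. Most like the other members was Cyc1, with a mean correlation of 0.345 to the remaining 96, followed by Ndufb9 at 0.338, Atp5pd at 0.321 and Cox7b at 0.318. Least like them were Cox6b2 at -0.167, Ndufaf1 at -0.161, Cox7b2 at -0.158, Cox6c-ps1 at -0.142 and Cox4i2 at -0.132. Of these 5, 3 are restricted isoforms of complex IV.

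**Figure D5:**
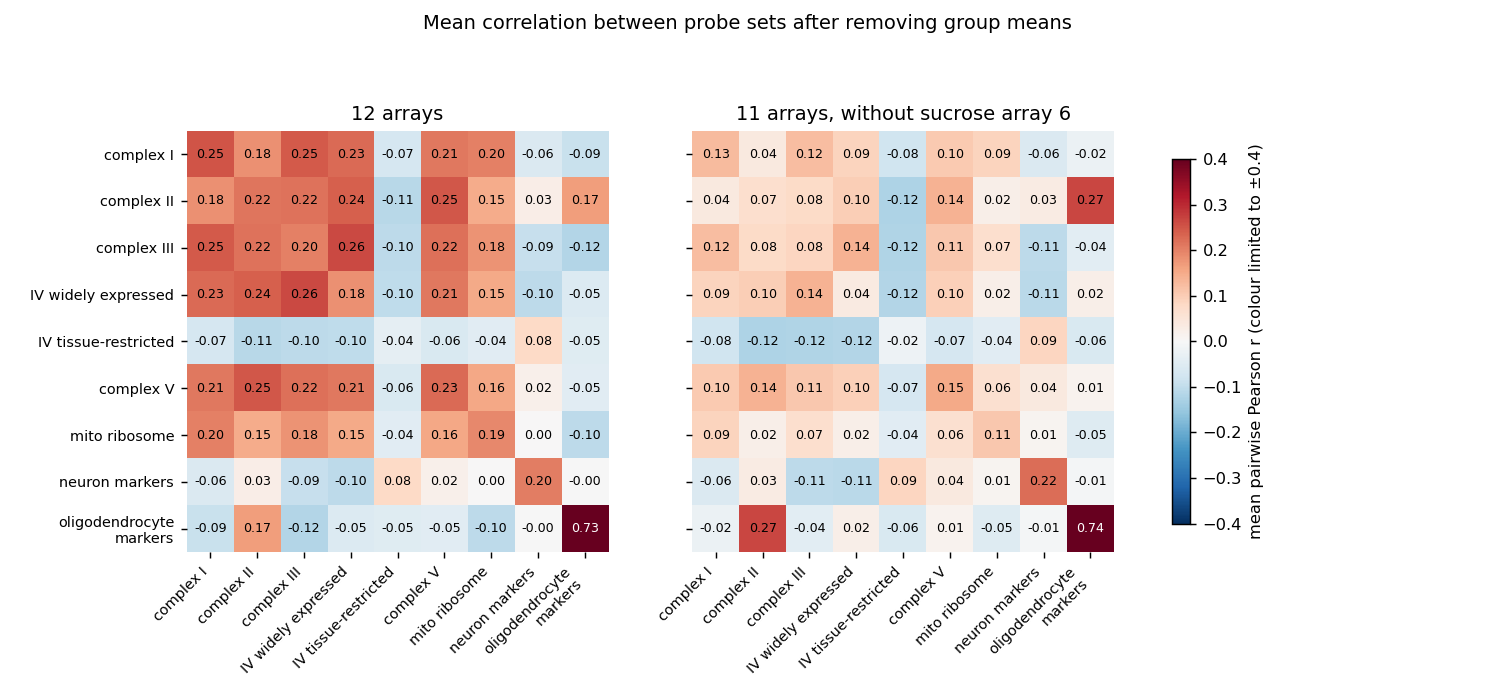
Mean pairwise Pearson correlation of residuals from the group means between sets of probe sets, over all 12 arrays (left) and over 11 arrays without sucrose array 6 (right), coloured from blue (negative) to red (positive). Complexes I, II, III and V and the widely expressed part of complex IV correlate at 0.18 to 0.26 with all arrays and at 0.036 to 0.150 without sucrose array 6, and the restricted isoforms of complex IV stay below 0 against each of them.

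Promoter sequences were read for these genes because these nuclear genes are known to share regulators. RefSeq promoters of assembly GRCr8, from 250 bases before to 50 after the gene start, were found for 78 of the 87 genes. The NRF1 motif GCGCATGCG, or CGCATGCGC on the other strand, occurred in 7 of the 78 (8.97%), against 1.52% of all 33469 promoters of the table. The ETS motif CCGGAAG, or CTTCCGG, occurred in 22 (28.2% against 8.75%), and the YY1 motif AAGATGGC, or GCCATCTT, in 17 (21.8% against 3.17%). None of these motifs contains another, and overlaps between them were allowed. At least 1 of them stood in 36 of the 78 promoters, 46.2% against 12.5% of all, and 42 promoters held none in this window. A match describes letters and not binding, and the base composition of these promoters was not compared. The 33469 promoters were not limited to genes measured on the array, so the shares over all are not from a matched set. The 7 members with the NRF1 motif are shown as 60 bases of the gene's own strand, 5′ to 3′, with the motif nearest the start in capitals.
Atp5me, chr14:1464760-1464819, plus strand: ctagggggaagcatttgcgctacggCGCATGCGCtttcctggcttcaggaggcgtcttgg
Atp5mg, chr8:54130598-54130657, minus strand: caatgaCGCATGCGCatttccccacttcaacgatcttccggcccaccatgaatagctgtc
Atp5po, chr11:44657507-44657566, minus strand: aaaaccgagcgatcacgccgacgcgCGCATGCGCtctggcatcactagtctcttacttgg
Ndufa11, chr9:1637499-1637558, plus strand: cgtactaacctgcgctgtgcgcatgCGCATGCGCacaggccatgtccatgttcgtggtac
Ndufaf4, chr5:43401613-43401672, plus strand: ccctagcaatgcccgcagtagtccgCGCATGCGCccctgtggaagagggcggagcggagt
Ndufaf5, chr3:147961552-147961611, plus strand: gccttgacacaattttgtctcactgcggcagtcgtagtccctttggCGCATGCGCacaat
Uqcrc1, chr8:118468159-118468218, plus strand: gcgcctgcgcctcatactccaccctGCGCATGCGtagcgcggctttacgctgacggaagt

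The ETS motif was the most frequent of the 3, and 1 promoter of each complex is shown, that of the member with the motif most like the other members, again as 60 bases of the gene's own strand with the motif in capitals.
Ndufa6, chr7:115750474-115750533, minus strand: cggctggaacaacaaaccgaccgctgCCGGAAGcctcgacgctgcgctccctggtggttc
Sdhb, chr5:158547800-158547859, plus strand: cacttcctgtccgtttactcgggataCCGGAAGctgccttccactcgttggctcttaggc
Uqcrq, chr10:38089979-38090038, minus strand: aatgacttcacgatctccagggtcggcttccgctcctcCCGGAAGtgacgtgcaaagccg
Cox5b, chr9:46417777-46417836, plus strand: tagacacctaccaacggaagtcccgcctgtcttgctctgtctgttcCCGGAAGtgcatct
Atp5mg, chr8:54130590-54130649, minus strand: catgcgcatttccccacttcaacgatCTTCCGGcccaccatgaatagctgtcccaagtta

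These genes with the ETS motif had mean correlations with the other members of 0.264 for Ndufa6, 0.259 for Sdhb, 0.289 for Uqcrq, 0.280 for Cox5b and 0.317 for Atp5mg. They were picked for this value, so it says nothing of the motif. Over all members with the motif it ran from -0.161 for Ndufaf1 to 0.317 for Atp5mg. Over all probe sets with the motif the mean pairwise correlation was 0.198, and over those of members without it 0.156. For NRF1 the values were 0.173 with and 0.164 without, and for YY1 0.175 and 0.178. Median differences between sucrose and control were -0.0012 with and -0.0040 without the ETS motif, -0.0076 and -0.0034 for NRF1, and 0.0014 and -0.0038 for YY1. These values describe the members and no test was run on them. Atp5mg is shown in both sets, and the ETS motif of its promoter lies in the same stretch as its NRF1 motif.

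Regulators of mitochondrial biogenesis were described beside the members, in a list of 27 probe sets of 17 genes. At an unadjusted p under 0.05, 3 were higher and 0 lower, where 4.5% and 3.07% of all probe sets were, and 0 passed the adjusted threshold. Yy1, a zinc-finger transcription factor, had ratios from 1.240 to 1.611 in the sucrose arrays with a median of 1.264, and from 0.830 to 1.129 in the controls with a median of 0.981 on probe set 1381886_at. Its 6 sucrose arrays were all above the 6 controls, with a difference of 0.40 ± 0.081 (SE) and an adjusted p of 0.308 in limma. The other 3 Yy1 probe sets differed by 0.070, 0.0096 and 0.00097, so this separation was seen on 1 of 4. Ppargc1a, the PGC-1 alpha coactivator, had differences of 0.27, 0.047 and -0.0034 on its 3 probe sets, and its relative Ppargc1b one of 0.13, each with an adjusted p of at least 0.593. Both coactivators and the genes that follow were named with their values known. The DNA-packing factor Tfam differed by 0.020, Gabpa by -0.032, the 3 probe sets of Nrf1 by 0.084, -0.00034 and -0.024, and Polg, the mitochondrial DNA polymerase, by 0.055 and -0.066.

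The enzymes that feed electrons to the chain gave few low p. Of 16 citric acid cycle probe sets 0 had an unadjusted p under 0.05, and the lowest in each direction were Mdh2, malate dehydrogenase, at 0.097 ± 0.055 (SE) and Idh3b, of isocitrate dehydrogenase, at -0.062 ± 0.031 (SE). Of 17 probe sets of the pyruvate dehydrogenase system 1 had, where 7.57% of all probe sets did, and it measured the activating phosphatase Pdp2, whose 2 probe sets were at 0.23 ± 0.077 (SE) and 0.080. The lower of the adjusted p for Pdp2 was 0.509 in limma. The lowest p on the lower side was that of the inhibitory kinase Pdk1, at -0.031 on 1 probe set, while its other was at 0.071. Neither list held a probe set that passed the adjusted threshold.

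Of 45 probe sets of other assembly factors 3 were higher and 0 lower at an unadjusted p under 0.05, against 4.5% and 3.07% of all probe sets. Both probe sets of Pet100, which helps to assemble complex IV, were among them, at 0.14 ± 0.058 and 0.15 ± 0.063 (SE), with adjusted p of 0.601 and 0.606. The remaining 1, also named after its value was seen, measured Lrpprc, an RNA-binding protein of mitochondria, at 0.17, and its other probe sets were at -0.10 and -0.0079. Coa7 had the lowest p on the lower side, at -0.078 on 1 probe set, while its other was at 0.053.

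Carriers (14 probe sets), antioxidant enzymes (12) and fusion, fission and transport genes (15) had 0 with an unadjusted p under 0.05 in either direction. Their lowest p in each direction belonged to the aspartate-glutamate carrier Slc25a12 at 0.021 and the uncoupling protein family member Slc25a27 at -0.12, to thioredoxin reductase Txnrd2 at 0.037 and thioredoxin Txn2 at -0.10, and to the motor adaptor Trak2 at 0.15 and the fusion gene Opa1 at -0.043. Of 97 mitochondrial ribosome probe sets 0 were higher and 3 lower at an unadjusted p under 0.05, and 3.07% of all probe sets were lower at that p. Of these Mrpl50 was at -0.35 ± 0.13 (SE) on 1 probe set and at 0.0056 on its other, and the adjusted p of the former was 0.568 in limma. The others, picked after their values were seen, were Mrpl4 at -0.072 ± 0.029 (SE) and Mrps22 at -0.16 ± 0.063 (SE). All 6 sucrose arrays of both lay below all 6 controls, where the groups did not overlap for 0.425% of all probe sets in either direction, and their adjusted p were 0.600 and 0.596. The lowest p on the higher side was that of Mrpl51, at 0.079. None of these lists had a member past the adjusted threshold.

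Genes of the mitochondrial genome were looked for under their usual rat symbols, and none matched. The platform's COX1 and COX2, symbols used for 2 subunits encoded by mitochondrial DNA, were picked out after their values were seen. COX1 differed by -0.017 ± 0.025 (SE) and COX2 by 0.0032 ± 0.025 (SE). COX1 had the same deposited ratio on 4 arrays, the most of any probe set. Such repeated ratios occurred in 2 members, on at most 2 arrays each.

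Of the 145 probe sets in the authors' deposited table of changed genes, 0 were members. Of the marker lists for other cells, that of oligodendrocytes had 20 of 21 probe sets higher after sucrose, 4 of them at an unadjusted p under 0.05, where 45.7% of all probe sets were higher and 4.5% were so at that p. It had array medians from 0.916 to 1.288 in the sucrose arrays and from 0.938 to 1.056 in the controls. The highest was that of sucrose array 5. The mean pairwise correlation of these probe sets was 0.73, so their signs are not separate observations. With the mean of these markers as a covariate 0 members were called, and the median of all members was 0.00027. Astrocyte markers had 14 of 18 probe sets higher, 3 of them at that p, with array medians from 0.992 to 1.100 and from 0.878 to 1.037. Excitatory neuron markers had 7 of 10 higher, 2 of them at that p, with array medians from 0.990 to 1.089 and from 0.918 to 1.020. Pan-neuronal markers had 4 of 10 higher and 0 at that p, with array medians from 0.977 to 1.006 and from 0.965 to 1.053. Striatal and central amygdala markers had 3 of 13 higher, 1 of them at that p, with a mean pairwise correlation of 0.70. Their array medians ran from 0.811 to 1.106 and from 0.908 to 1.077. Inhibitory neuron markers had 3 of 8 higher, 1 of them at that p. Microglia markers had 7 of 13 higher, and 2 lower at that p. Choroid plexus markers had 6 of 8 higher, with a median of 1.671 on sucrose array 1 and 0.919 to 1.065 on the other sucrose arrays. The part of these lists in the member values, beyond the oligodendrocyte covariate, was not tested.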

How the data were processed

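RNA of 12 BLA pools was hybridised as biotin-labelled cRNA to Affymetrix rat arrays, per the labels. The submitters' processing notes name RMA, without a version. The deposited values are ratios: for every probe set the 6 controls average 1, within 2.02e-07, and no source used here says whether arrays were scaled again. The second deposited table gives p-values and mean ratios of 145 probe sets, per the file headers, and the test behind them is not named there. No signal level is kept, so the number of arrays limits the precision.

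Of 31099 probe sets 57 controls were left out, which leaves 31042. The platform annotation gave 1 symbol to 20826, several to 436 and none to 9780. All 87 member genes matched the RefSeq gene table of GRCr8. The test was limma's two-sided moderated test (version 3.58.1, R 4.3.3) on log2 of these ratios, with lmFit, eBayes without a trend and no covariate. P-values were adjusted by Benjamini-Hochberg across the 31042, at a threshold of 0.05, and intervals are 95% intervals. The procedure was tested on simulated data. Percent differences were taken from the log2 differences. Correlations are of residuals from the group means. Promoters are RefSeq's, of GRCr8.

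The members, the related lists and the tests were chosen with earlier results of these data known, so counts over the members are descriptions. Members named are the 5 of lowest p in each direction, those whose groups do not overlap, the lowest p of each complex and of each related list in each direction, the 5 largest and 5 smallest SDs, and a set of core subunits and isoforms. The related lists were citric acid cycle, pyruvate dehydrogenase system, other assembly factors, biogenesis, carriers, antioxidant enzymes, mitochondrial dynamics and mitochondrial ribosome. Alternatives were a replicate block, 2 other scalings, a variance trend, a robust prior, array weights, 3 covariates, a Welch test, 1 value per gene, other sets of members and each array left out. Arrays with the same replicate number did not deviate together (correlations of residuals from -0.150 to 0.194), so the numbers were not used as pairs.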

Additional observations from a re-analysis of the deposited data

Results flagged for a closer look

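In 116 sets of 6 arrays (51 named members and 7 medians, of the complexes, the assembly factors and all members, in either group), 9 held an array whose distance to the nearest of the others exceeded Dixon's 95% limit as a share of the range, where chance gives about 6. Sucrose array 6 was that array in 5 of them. It had the median of all members at 0.970, against 0.9996 to 1.009 on the other sucrose arrays. The median of complex I on it was 0.966, against 0.996 to 1.014, and that of complex IV 0.972, against 0.998 to 1.013. Ndufs3, a core subunit of complex I, was at 0.920 on it and otherwise between 0.991 and 1.030, and Sdhc, a membrane anchor of complex II, was at 0.938 and otherwise between 0.999 and 1.028. Over all 97 members, named or not, 13 of 194 sets held such an array, where chance gives about 10, and it was sucrose array 6 in 6 of them. The cause was not tested.

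Control array 5 was high for Uqcrc2 on probe set 1382280_at, at 1.047 with the other controls between 0.978 and 1.003, and for Cox5b, at 1.044 with the others between 0.980 and 0.999. Control array 3 was high for Atp5f1b, at 1.060 with the others between 0.975 and 1.003. Sucrose array 1 was high for the muscle isoform Cox6a2, at 1.047 with the others between 0.932 and 0.970.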

How the results depend on the processing

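Under every alternative run 0 members were called after adjustment. At an unadjusted p under 0.05 the count was 0 in the main analysis and 1 with the oligodendrocyte covariate (Ndufv3) and with the Welch test (Ndufs6). Leaving out 1 array at a time gave 0 to 1 members, the 1 being Ndufv3 without sucrose array 4 and Cox6b2 without control array 2. Over all probe sets these fits called 0 to 1, the 1 without sucrose array 3 or without sucrose array 5. With the replicate block 0 members were called, the median difference of the members stayed -0.0020, and no other call changed. The medians ranged over all settings from -0.0051 to 0.0070 for all members, -0.012 to 0.0057 for complex I, 0.0032 to 0.021 for complex II, -0.0026 to 0.013 for complex III, -0.0049 to 0.0095 for complex IV and -0.0088 to 0.010 for complex V, each smaller than the pooled SD between arrays of the same median. The mean correlation among members was 0.0717 without sucrose array 6, chosen after seeing the data, and 0.0717 to 0.190 over all arrays left out in turn. Of 14 named members, each under 23 alternatives, Uqcrfs1 alone turned its sign, to 0.00087 with the oligodendrocyte covariate and to 0.0098 without sucrose array 4, with a range of -0.026 to 0.0098 over arrays left out. The lowest adjusted p among these was 0.376, for Cox6b2. An exact permutation test of single members gave its lowest p, 0.0455, for Ndufs6, and the smallest it can give is 0.00216. The cause of these changes was not tested. With 6 pools per group and no signal level, smaller differences than the printed intervals allow were not detectable.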
